A study of Mus musculus with 4 samples.

Results

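Genes of the mTOR pathway were followed in a map of trimethylated lysine on histone H3 (H3K36me3) made by chromatin immunoprecipitation and sequencing (ChIP-seq) from the mouse forebrain. The 9 genes were Mtor, Rptor, Rictor, Mlst8, Tsc1, Tsc2, Rheb, Akt1 and Depdc5. They were chosen by name, and a peak belonged to a gene when the authors' annotation gave it that gene's name and a class other than intergenic. This gave 150 of the 95750 peaks of the H2A.z1 cKO library and 70 of the 36820 peaks of the wild-type (WT) library. The cKO embryos carried a brain-specific deletion of the histone variant H2A.z1 and the WT embryos did not. Both were of C57BL/6 background and were taken at embryonic day 13, and the labels give neural progenitor cells as the cell type. Each genotype had 1 ChIP library and 1 input library, with 32927164 ChIP tags in cKO and 31984670 in WT. The driver of the deletion and the number of embryos per library are not given in the sources used here. There was thus no replicate, every difference below is one between 2 libraries, and no test between genotypes was possible.

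mTOR is a kinase that sits at the centre of 2 protein complexes, mTORC1 and mTORC2, which tie cell growth and protein synthesis to growth factors, energy and amino acids. Growth factors act through Akt, which inhibits the TSC complex, a brake on the small GTPase Rheb that switches mTORC1 on. In the developing cortex, loss of the brakes causes overgrown neurons and malformations. H3K36me3 is placed by SETD2, an enzyme that travels with elongating RNA polymerase II, and it is known to mark the transcribed part of active genes and little of their starts. A peak here says where the mark was enriched over input, and it is not a measure of RNA.

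Across the series, 69.1 Mb lay inside peaks in cKO, against 13.3 Mb in WT, and the median width of genic peaks was 439 bp in cKO and 271 bp in WT. Tags were extended to 185 bp in cKO and 152 bp in WT, and the narrowest peaks on the 9 genes had these widths. Of 11 neural progenitor markers, 10 had a peak over their body in cKO and 9 in WT, with Fabp7 at 0 in both. Of 8 neuron markers, 3 had one in cKO and 3 in WT, but these were not the same 3 genes, and 4 had none in either. Markers of microglia and blood had peaks at 2 of 6 genes in cKO and at 0 of 6 in WT, and the 4 endothelial and 4 mesenchymal markers had none. The deleted gene, listed as H2az1, had 21.1% of its body inside peaks in cKO and 7.80% in WT. This is a level of the mark and not a check of the deletion.

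The promoters of the 9 genes lay outside the mark in both libraries. Windows of 300 bases, from 250 before to 50 after a transcription start, were taken from RefSeq (GRCm38.p6, the build the files call mm10), which holds 10 windows for the 9 genes, with 2 for Akt1. Peaks overlapped 0 of the 10 windows in cKO and 0 in WT. The same held for nearly all marked genes, since 1.14% of the windows of genes with a peak in both libraries were overlapped in cKO and 0.225% in WT. The windows of Mtor, Tsc2 and Rheb are shown because these are the kinase itself, the gene with the largest difference in coverage below and the direct activator of mTORC1. They stand as examples of the unmarked starts from which the marked bodies run. Capitals mark the matches, on either strand, to 3 short motifs, namely GGGCGG (the GC box), CCGGAAG (an ETS core) and CACGTG (an E-box).
Mtor, plus strand, chr4:148448332-148448631: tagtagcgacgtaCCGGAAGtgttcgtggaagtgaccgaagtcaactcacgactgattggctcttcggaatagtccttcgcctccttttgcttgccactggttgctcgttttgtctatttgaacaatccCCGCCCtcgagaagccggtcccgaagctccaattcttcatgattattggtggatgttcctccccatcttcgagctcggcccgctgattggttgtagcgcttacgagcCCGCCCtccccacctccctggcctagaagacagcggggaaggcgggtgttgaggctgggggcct
Tsc2, minus strand, chr17:24632578-24632877: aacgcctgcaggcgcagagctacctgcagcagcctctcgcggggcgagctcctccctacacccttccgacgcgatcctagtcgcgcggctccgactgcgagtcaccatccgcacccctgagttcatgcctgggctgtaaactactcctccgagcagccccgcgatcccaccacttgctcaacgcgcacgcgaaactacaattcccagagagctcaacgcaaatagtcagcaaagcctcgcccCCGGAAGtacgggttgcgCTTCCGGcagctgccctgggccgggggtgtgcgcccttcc
Rheb, minus strand, chr5:24842312-24842611: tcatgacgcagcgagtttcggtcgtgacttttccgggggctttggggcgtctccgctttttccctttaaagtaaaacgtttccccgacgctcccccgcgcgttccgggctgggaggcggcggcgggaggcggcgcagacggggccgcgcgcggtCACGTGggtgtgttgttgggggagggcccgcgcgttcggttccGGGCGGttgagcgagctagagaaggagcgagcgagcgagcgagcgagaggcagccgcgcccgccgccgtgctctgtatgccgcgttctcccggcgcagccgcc
CCGGAAG occurred in 2 of the 10 windows, those of Mtor and Tsc2, against 8.86% of all 32851 windows in the table. GGGCGG occurred in 5 of the 10 windows, those of Mtor, Rheb, Depdc5, Rictor and 1 of the 2 of Akt1, against 35.7% of all windows. CACGTG occurred in the Rheb window alone of the 10, against 7.15% of all. In the 3 windows shown no match overlaps that of another motif. The 10 windows held 8 to 47 CpG dinucleotides, against a median of 7 and an upper quartile of 20 over all windows. All lay above that median. Those of Rptor (13), Mlst8 (19), Tsc1 (20) and 1 of the 2 of Akt1 (8) did not exceed the upper quartile.

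The marked bodies of the 9 genes were covered more fully in cKO. Coverage is the share of a gene body, from its RefSeq start to its end, that lies inside peaks. It was higher in cKO in 9 of 9 genes, and under the calling rule, which asks for 10 percentage points or more in a gene no shorter than 5 kb, in 8 of 9. The exception was Rptor. The same rule called 32.6% of all 16853 protein-coding genes of at least 5 kb higher in cKO, and 0 genes lower. All 9 genes had a peak over their body in both libraries, against 52.1% of genes with one in cKO and 38.0% in WT. Among genes with a WT peak, which the 9 genes all had, 75.3% were called higher, so the count of 8 stands near what marked genes did in general. The cKO list was longer as a whole, with 95750 peaks against 36820 in WT. Whether the higher coverage came from the genotype or from a difference between the libraries themselves was not tested. In bulk chromatin, more cells with the mark and more of the mark per cell cannot be told apart either. The median over the 9 genes was 41.9% in cKO and 6.09% in WT, with a median difference of 32.6 points. The 6400 genes with a WT peak had medians of 29.0% in cKO and 3.96% in WT and a median difference of 22.9 points, which 5 of the 9 genes exceeded. With 20 points required instead, 6 of the 9 genes were called, against 22.8% of all genes of at least 5 kb. The median difference of genes with a WT peak, 22.9 points, is itself above 20, so most marked genes passed this limit too.

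**Figure D1:**
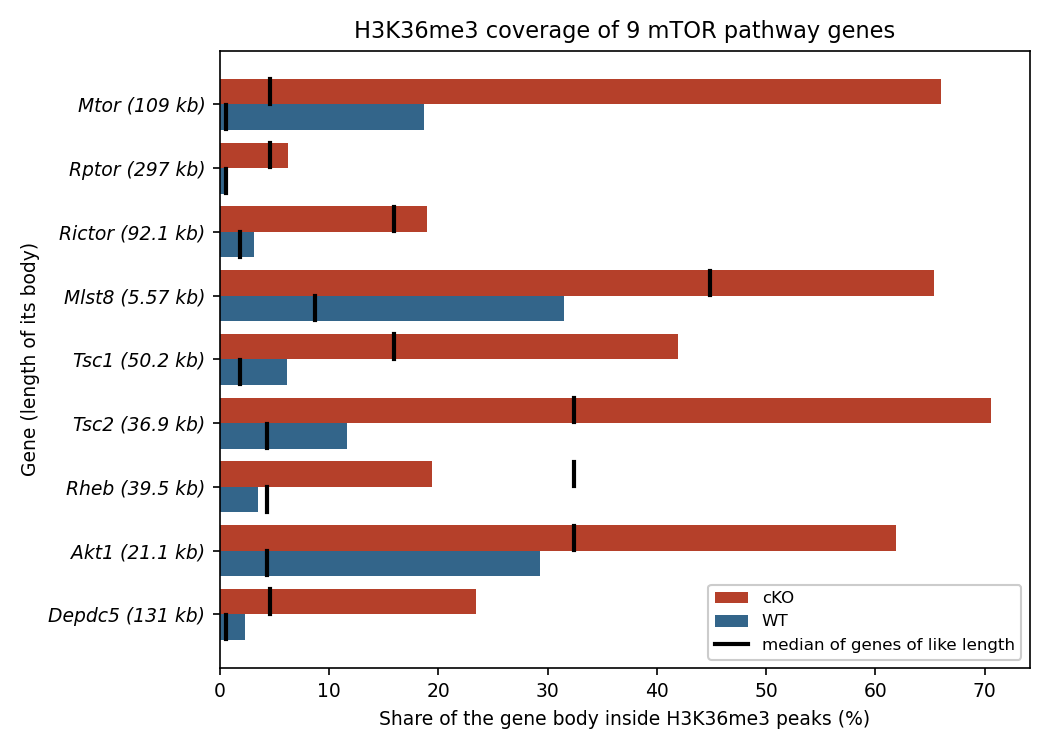
Share of each gene body inside H3K36me3 peaks (horizontal axis, percent), with the cKO bar above the WT bar for each gene, 1 library per bar, and black ticks at the median, in the same library, of genes with a WT peak and a body of like length. Every cKO bar is longer than its WT bar, Tsc2 reaches 70.6% in cKO against 11.6% in WT, and Rheb lies under its ticks in both libraries.

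Mtor, the kinase of both complexes (gene ID 56717, chr4:148448582-148557685, plus strand, 109 kb), was marked along nearly its whole length. Coverage was 66.0% in cKO and 18.6% in WT, a difference of 47.4 points. Genes over 100 kb with a WT peak had a median of 4.61% in cKO and 0.522% in WT, so Mtor was high for its length in both libraries. Its body carried 60 cKO peaks and 53 WT peaks, and each of the 53 WT peaks was overlapped by a cKO peak. The cKO peaks were wider, with a median of 780 bp against 304 bp in WT, and left gaps with a median of 315 bp against 683 bp in WT. The widest cKO peak on Mtor, chr4:148467303-148473260 (5958 bp, by the authors' class at exon 17 of 58), spanned 6 WT peaks. The first peak began 3.66 kb from the gene's 5' end in cKO and 3.74 kb in WT, so the unmarked start was of similar length. The longest stretch between peaks was 3.74 kb in cKO and 14.4 kb in WT.

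Among 2162 genes within a factor of 1.5 of its length, Mtor ranked 8 from the top by coverage in cKO and 13 in WT. The 3 genes closest to it in the pair of coverage values, found over 2 libraries, were Brwd1 with 65.8% in cKO and 19.7% in WT, Lrp1 with 65.8% in cKO and 17.0% in WT, and Gon4l with 68.5% in cKO and 25.3% in WT. The median of the 2162 genes was 0.930% in cKO and 0 in WT. Angptl7, a secreted factor, lies inside Mtor and shares 5282 bases with it. With these bases left out, an alternative added after seeing the data, Mtor had 66.3% in cKO and 19.1% in WT.

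Mlst8, the WD-repeat subunit that both complexes share (gene ID 56716, chr17:24473550-24479114, minus strand, 5.57 kb), is the shortest of the 9 genes. Its coverage was 65.4% in cKO and 31.5% in WT, a difference of 33.9 points. Genes of 5 to 20 kb with a WT peak had a median of 44.9% in cKO and 8.66% in WT. Their median difference was 31.9 points, near that of Mlst8. A single cKO peak of 3637 bp lay over it, against 2 WT peaks of 1253 and 498 bp, both within the cKO peak. Mlst8 shares 1922 bases with Bricd5, its neighbour, which had 88.0% coverage in cKO and 25.1% in WT. Signal over the shared bases cannot be assigned to one of the genes. Without them, Mlst8 had 51.9% in cKO and 34.4% in WT, a difference of 17.5 points.

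Rptor, the mTORC1 subunit that binds its substrates (gene ID 74370, chr11:119602905-119899591, plus strand, 297 kb), is the longest of the 9 genes and the least covered. Peaks took up 6.23% of it in cKO and 0.423% in WT, a difference of 5.80 points that did not reach 10. Both values lie near the medians of genes over 100 kb with a WT peak, 4.61% in cKO and 0.522% in WT. Its peaks crowded at the 3' end. Of the covered bases, 92.9% in cKO and 100% in WT lay in the last of 3 equal segments of the gene. Over that last segment the coverage was 17.4% in cKO and 1.27% in WT. Of the 34 cKO peaks a lone one stood 5.02 kb from the 5' end, and the next followed after 149 kb without one, while the first of the 5 WT peaks lay 249 kb from the 5' end. One WT peak on Rptor, chr11:119859342-119859522 (pileup 22), had no cKO partner.

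Rictor, the defining subunit of mTORC2 (gene ID 78757, chr15:6708349-6800401, plus strand, 92.1 kb), had 18.9% coverage in cKO and 3.14% in WT, a difference of 15.8 points. Genes of 50 to 100 kb with a WT peak had a median of 15.9% in cKO and 1.87% in WT. The first of 29 cKO peaks began 38.8 kb from the 5' end and the first of 9 WT peaks 71.5 kb from it. The last segment held 88.8% of the covered bases in cKO and 100% in WT. All 9 WT peaks had a cKO partner, and the highest peaks of both libraries lay at the same place, exon 31 of 38 in the authors' annotation.

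Tsc2, the GTPase-activating subunit of the TSC complex (gene ID 22084, chr17:24595816-24632676, minus strand, 36.9 kb), had the largest difference of the 9 genes. Coverage was 70.6% in cKO and 11.6% in WT, a difference of 59.0 points that stood above 99.5% of genes of at least 5 kb. Genes of 20 to 50 kb with a WT peak had a median of 32.4% in cKO and 4.30% in WT. The gene carried 20 cKO peaks with a median width of 1033 bp and 12 WT peaks with a median width of 237 bp, and all 12 WT peaks lay on cKO peaks. In cKO the mark began 1.63 kb from the 5' end, against 6.17 kb in WT. Coverage in cKO was 69.9% over the first segment, 60.1% over the middle and 81.8% over the last, and in WT 13.2% over the first, 10.0% over the middle and 11.7% over the last. No segment of Tsc2 was thus bare in either library. The last 699 bases are shared with Pkd1, whose coverage was 39.1% in cKO and 5.47% in WT, and Nthl1, which starts 4 bp beyond the other end, had no peak in either library.

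Tsc1, the partner that stabilises Tsc2 (gene ID 64930, chr2:28640993-28691172, plus strand, 50.2 kb), had 41.9% coverage in cKO and 6.09% in WT, a difference of 35.8 points. It carried 20 cKO and 9 WT peaks. The first lay 12.6 kb from the 5' end in cKO and 18.9 kb in WT, so the first segment was almost bare, with 4.93% coverage in cKO and 0% in WT. The last segment reached 63.8% in cKO and 13.3% in WT.

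The 2 TSC genes held the peaks of highest pileup among the 9 genes in both libraries. Pileup is the authors' count of extended tags at the summit, used here only to rank peaks within a library. On Tsc1 it reached 137 in cKO (chr2:28681170-28683958, intron 20 of 22), above 99.97% of the genic peaks of that library, and 58 in WT (chr2:28682139-28683352, the same intron), above 99.8%. The Tsc2 maximum was 101 in cKO (chr17:24623364-24625781, intron 9 of 39), above 99.9%, and 43 in WT (chr17:24624520-24625340, the same intron), above 99.4%. The local background, recovered from pileup and fold enrichment, was above the genome background in 3 of these 4 peaks. At the Tsc1 peak it was 16.9 tags in cKO, where the genome background was 3.26, and 4.98 in WT, where it was 2.60. For the Tsc2 peak it was 11.3 in cKO and equal to the genome background, 2.60, in WT. By fold enrichment over local background they were not the highest in cKO, with 7.70 for Tsc1 and 8.31 for Tsc2. A peak on Mtor reached 12.9 there. In WT they were the highest by fold too, with 9.86 for Tsc1 and 12.2 for Tsc2. The part of the local background in the pileup of the Tsc1 and Tsc2 peaks was not tested.

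Rheb, the GTPase that activates mTORC1 (gene ID 19744, chr5:24802823-24842361, minus strand, 39.5 kb), had 19.4% coverage in cKO and 3.45% in WT, a difference of 16.0 points. Genes of 20 to 50 kb with a WT peak had a median of 32.4% in cKO and 4.30% in WT, and Rheb lay under it in both libraries. Among all genes of at least 5 kb, marked or not, Rheb stood above 73.8% in cKO and 79.6% in WT. No peak reached the first segment in either library. The first of 14 cKO peaks lay 23.7 kb and the first of 6 WT peaks 25.2 kb from the 5' end. The last segment held 87.5% of the covered bases in cKO and 88.3% in WT. All 6 WT peaks had a cKO partner.

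Akt1, the kinase that relays growth factor signals to the TSC complex (gene ID 11651, chr12:112653821-112674884, minus strand, 21.1 kb), had 61.9% coverage in cKO and 29.3% in WT, a difference of 32.6 points. Together with Mlst8 it was one of 2 genes of the 9 with fewer peaks over the body in cKO than in WT, 7 in cKO against 10 in WT, while more of it was covered. Among genes of at least 5 kb with a peak in both libraries, 14.8% had more WT than cKO peaks. The widest peak on any of the 9 genes, chr12:112653909-112660001 (6093 bp), spanned 4 of the WT peaks of Akt1. Over the last segment, coverage was 94.3% in cKO and 60.8% in WT, the highest of the 9 genes in both libraries.

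Depdc5, the GATOR1 subunit that holds mTORC1 back when amino acids are scarce (gene ID 277854, chr5:32863646-32994233, plus strand, 131 kb), had 23.4% coverage in cKO and 2.27% in WT, a difference of 21.1 points. Genes over 100 kb with a WT peak had a median of 4.61% in cKO and 0.522% in WT. Its body carried 71 cKO peaks with a median width of 357 bp and 11 WT peaks with a median width of 225 bp. In cKO these were the most peaks on any of the 9 genes and the smallest median width, with Rptor next at 423 bp, while in WT neither was the case. In cKO they stood 745 bp apart in the median, and in WT 5218 bp apart. The 3 segments had similar coverage in cKO, 22.6% in the first, 27.9% in the middle and 19.8% in the last. WT coverage was 2.05% in the first, 4.34% in the middle and 0.407% in the last. One WT peak, chr5:32874159-32874355 (pileup 13), had no cKO partner.

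**Figure D2:**
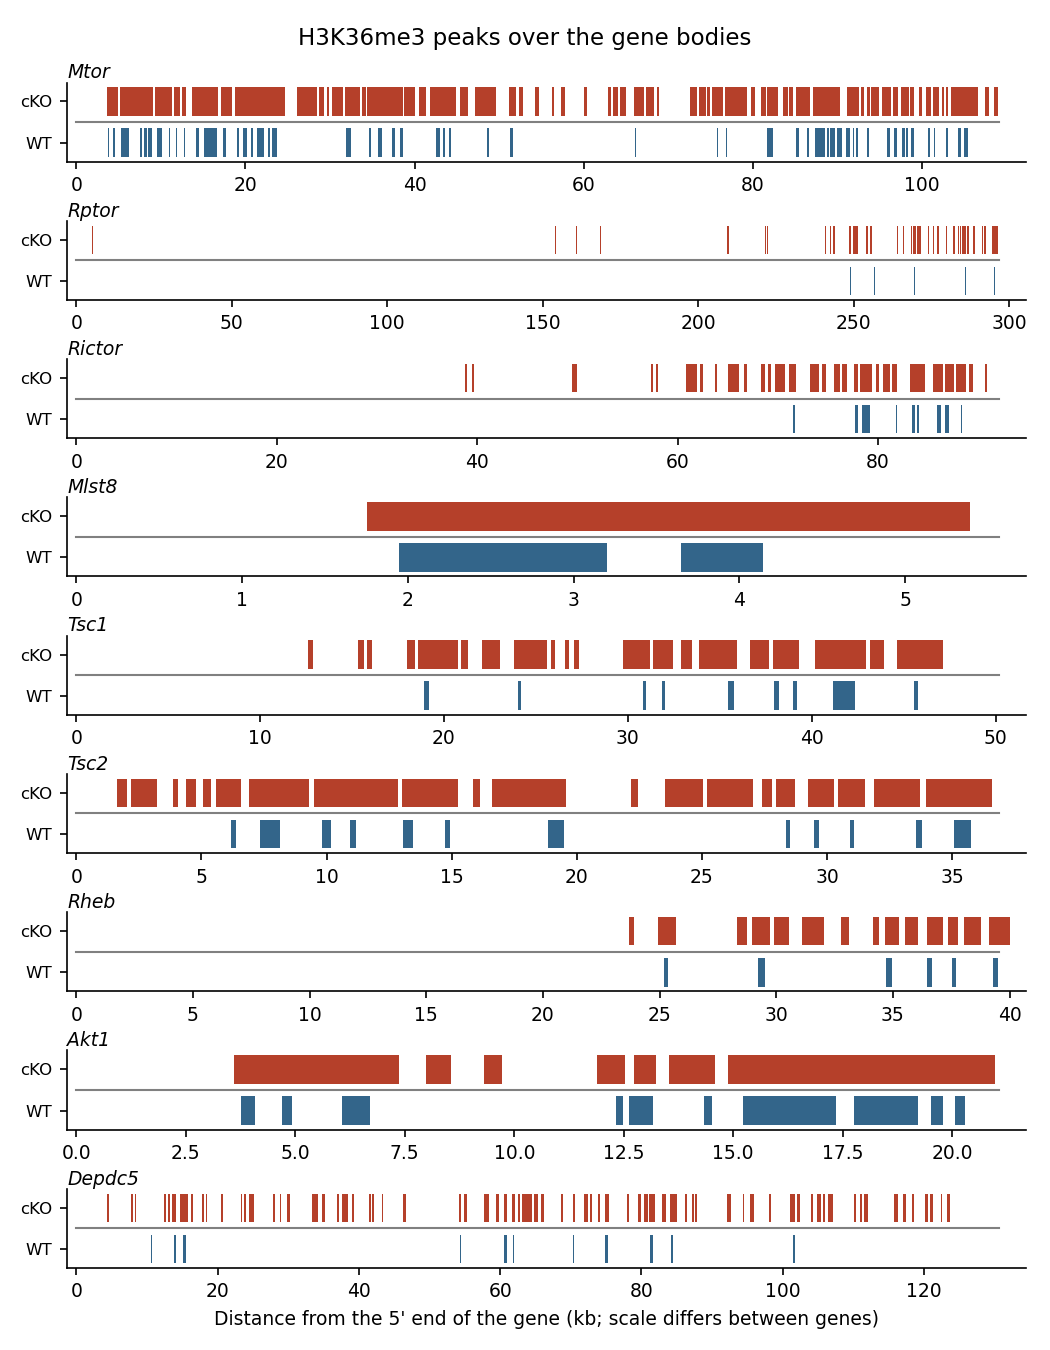
Position of every peak over the 9 gene bodies, with distance from the gene's 5' end in kb on the horizontal axis (the scale differs between genes), cKO peaks above the line and WT peaks below it (the narrowest are widened slightly to be visible). In cKO, Mtor, Tsc2 and Depdc5 are marked along their length. The cKO peaks of Rptor, Rictor and Rheb stand toward the 3' end, where the last segment holds 92.9, 88.8 and 87.5% of the covered bases. In WT the peaks of Depdc5 are sparse, with a longest gap of 38.7 kb.

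Set side by side, the 9 genes differed widely in where the mark lay along their length. In cKO the share of covered bases in the last segment was 87.5 to 92.9% for Rheb, Rictor and Rptor, 50.8% for both Tsc1 and Akt1, and 28.2 to 46.2% for Depdc5, Mtor, Tsc2 and Mlst8. In WT it was 69.3 to 100% for Rptor, Rictor, Rheb, Tsc1 and Akt1, and 5.98 to 40.6% for the other 4 genes. In each library 5 of the 9 genes thus had over 50% there. Over 5141 genes of at least 5 kb with a peak in both libraries and a known strand, the median share in the last segment was 50.7% in cKO and 58.9% in WT, and 51.3% of these genes in cKO and 58.4% in WT had over 50% there, so the count of 5 is near that background. The first segment held no covered base in 2 of the 9 genes in cKO, Rictor and Rheb. In WT it held none in 5 of the 9, which were these 2 with Rptor, Mlst8 and Tsc1. Over the 5141 genes it held none in 35.5% in cKO and 64.1% in WT, so these counts too lie near the background.

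**Figure D3:**
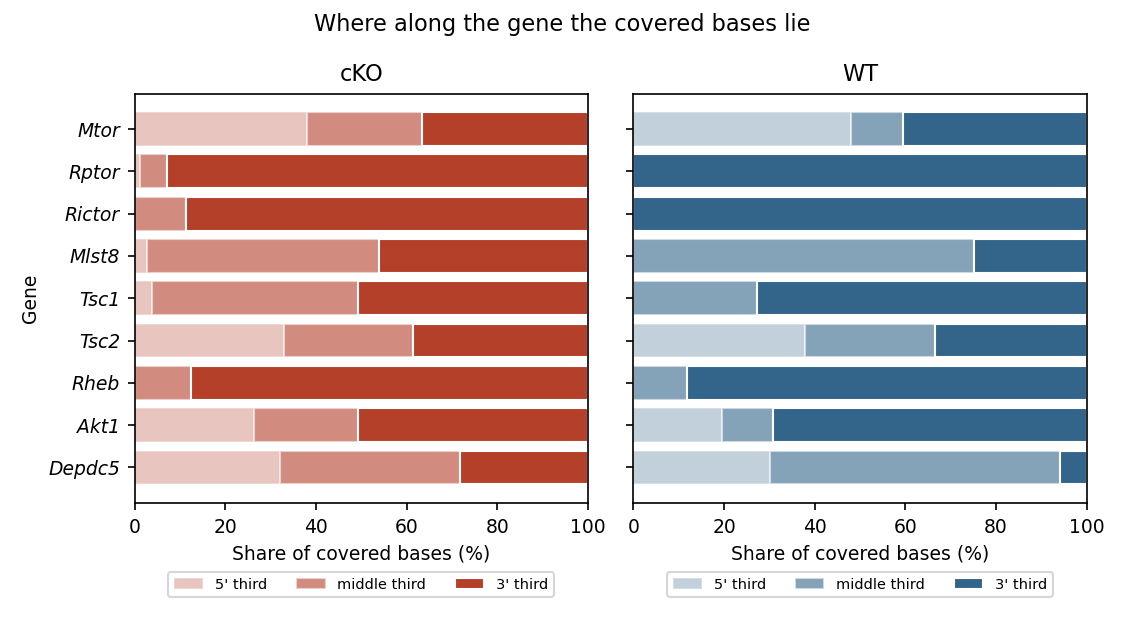
Share of the covered bases of each gene (horizontal axis, percent) in 3 equal segments of its body, from the 5' end (light) through the middle to the 3' end (dark), with cKO in the left panel and WT in the right panel. Rptor and Rictor are wholly dark in WT (100%), and Depdc5 has the smallest dark share there (5.98%).

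Nearly all WT peaks of the 9 genes lay inside the cKO mark. Of the 256 cKO peaks over the bodies, 81 shared at least 1 bp with a WT peak, which is 31.6% (exact Clopper-Pearson 95% interval 26.0 to 37.7%). Of the 117 WT peaks, 115 shared at least 1 bp with a cKO peak, which is 98.3% (94.0 to 99.8%). Intervals cover counting error only, and peaks of 1 gene share their source. Over all genic peaks of the series the overlaps were 25.6% of cKO peaks and 96.5% of WT peaks. Among the 256 cKO peaks, 175 held no WT peak, 62 held 1, 11 held 2, and the rest held from 3 to 6. Over the 9 genes the median peak width was 497 bp in cKO and 275 bp in WT, and 24 cKO peaks against 1 WT peak were over 2 kb. All genic peaks were wider in cKO too, with a median of 439 bp against 271 bp in WT. Their share over 2 kb is not given here. By the authors' classes, 185 cKO peaks were in introns, 38 in exons, 24 at transcript ends and 9 at starts of annotated transcripts inside the genes. Of the WT peaks, 73 were in introns, 28 in exons, 11 at transcript ends and 5 at such starts.

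The name that the annotation gave to a peak often differed from the gene it lay in. Of the 256 cKO peaks over the 9 bodies, 106 carried the name of another gene, as did 47 of the 117 WT peaks, so the choice by name kept 58.6% of the cKO peaks and 59.8% of the WT peaks. Over all genic peaks on a protein-coding body, 32.6% in cKO and 32.6% in WT carried the name of no protein-coding gene they overlapped. That measure is looser, since the name of any overlapped protein-coding gene counts as a match. For the 9 genes, a peak named after an overlapped neighbour such as Bricd5 counts as another name. By name, Mtor had 16 cKO and 26 WT peaks, fewer in cKO, whereas its body had 60 in cKO and 53 in WT. The remainder were named after Angptl7 (24 in cKO, 11 in WT), Gm24002 (14 in cKO, 12 in WT) and Gm23318 (5 in cKO, 4 in WT), all inside Mtor, and 1 in cKO after the neighbour Exosc10. By name, Rictor had 5 cKO peaks and 0 WT peaks, while 24 cKO and 9 WT peaks on its body were named after Osmr, the oncostatin M receptor gene. Mlst8 had 0 cKO peaks and 1 WT peak by name, since its cKO peak was named after Bricd5. Of the other 6 genes, Rptor had 22 cKO and 3 WT peaks by name, Tsc1 19 cKO and 8 WT, and Tsc2 11 cKO and 6 WT. Rheb had 13 cKO and 6 WT peaks by name, Akt1 7 cKO and 10 WT, and Depdc5 57 cKO and 10 WT. Coverage, which uses position alone, does not depend on these names.

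**Figure D4:**
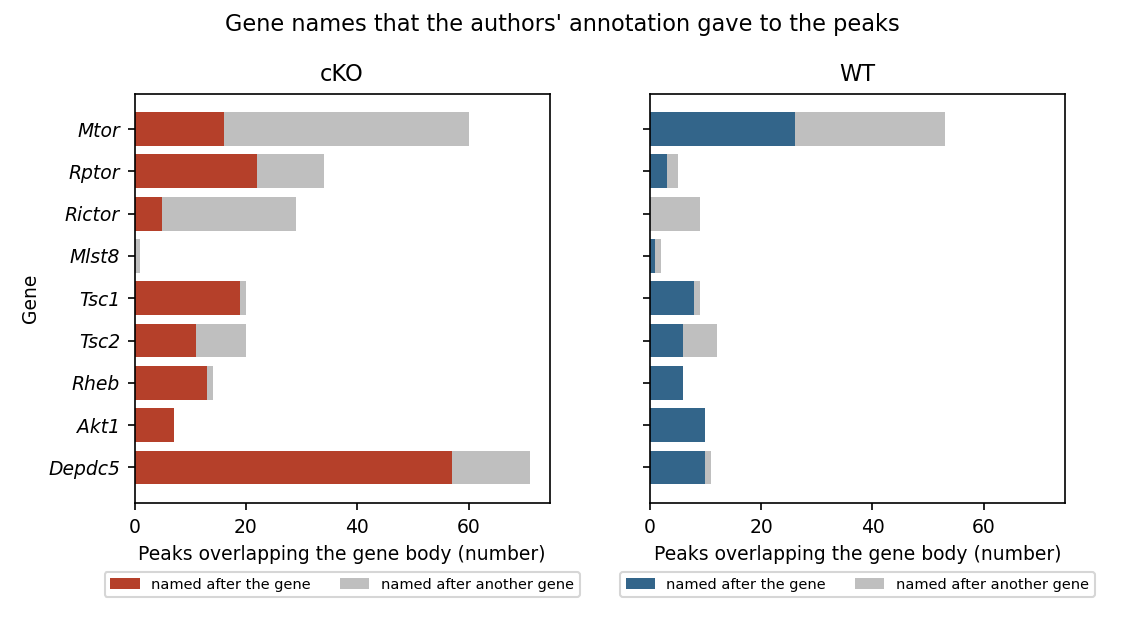
Number of peaks over each gene body (horizontal axis), cKO in the left panel and WT in the right panel, split into peaks that the authors' annotation named after the gene (coloured) and after another gene (grey). For Rictor the coloured part is 5 of 29 peaks in cKO and 0 of 9 in WT.

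A wider set of 79 pathway genes, the 9 among them, was read in 6 lists. Of the 79 genes, 68 had a peak over the body in cKO and 51 in WT. Peaks in cKO alone were found on 17 genes, in WT alone on 0, and in neither on 11. Of all 16853 genes of at least 5 kb, 8775 had a peak in cKO, 6400 in WT and 6302 in both. Peaks in WT alone were thus rare among all genes too. Of the 71 genes of at least 5 kb, 39 (54.9%) were called higher in cKO and 0 lower, against 32.6% of all genes. Without the 9 genes the count was 31 of 62 (50.0%). Of the 49 callable genes with a WT peak, 34 (69.4%) were called higher, against 75.3% of all such genes, so among marked genes the wider set did not exceed the background. The median difference over the 79 genes was 11.8 points.

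The counts per list stand beside 32.6% of all genes called higher and 75.3% of those with a WT peak. The complexes and their assembly factors had 7 of 12 genes called higher. Telo2 and Tti2, which fold and assemble kinases of the mTOR family, had 54.6% in cKO against 5.17% in WT and 58.7% in cKO against 17.6% in WT. Akt1s1, which encodes the mTORC1 inhibitor PRAS40, had 17.9% in cKO and no WT peak. Mapkap1 and Prr5l, for mTORC2 subunits, had 1.51% and 0.367% in cKO and no WT peak. Deptor, an inhibitor of both complexes, and Prr5 had no peak in either library. In the TSC list all 4 callable genes were higher. There Tbc1d7, the remaining TSC subunit, had 15.2% in cKO and no WT peak, and the short gene Rhebl1 had none in either.

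Among the genes of the PI3K and Akt input, 5 of 13 were called higher, and each of the 13 had a peak in cKO. Pik3r2, a regulatory subunit of PI3K, had 58.8% in cKO and 19.9% in WT. Akt2 had 28.0% in cKO and 2.50% in WT, and Pik3ca, a catalytic subunit, 18.0% in cKO and 2.60% in WT. Of the energy and stress genes, 4 of 8 were called. Stk11, the kinase upstream of AMPK, had 54.0% in cKO and 11.9% in WT. Prkab1 and Prkaa1, AMPK subunits, had 73.2% in cKO against 33.9% in WT and 22.0% in cKO against 6.50% in WT. Sesn1 and Sesn2 had 3.59% and 3.38% in cKO and no WT peak, and Prkaa2 and Ddit4 had none in either.

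The amino acid branch, to which Depdc5 belongs, had 11 of 22 genes called higher. Flcn had 69.4% in cKO and 12.9% in WT, and Sec13 57.7% in cKO and 10.2% in WT. Peaks in cKO alone lay on Wdr24 (41.2%), Lamtor4 (21.7%), Lamtor5 (20.7%), Kptn (7.15%), Castor2 (5.80%), Fnip1 (2.99%), Rragd (2.17%) and Bmt2 (2.07%). Castor1, Rraga, Rragb and Lamtor2 had no peak in either library. Among the outputs, 8 of 12 genes were called. Rps6kb2, an S6 kinase, had 53.4% in cKO and 2.50% in WT, Ulk1, which starts autophagy, 64.3% in cKO and 28.6% in WT, and Eif4b, a translation factor, 59.3% in cKO and 26.4% in WT. Tfe3 and Eif4ebp1 had 15.0% and 2.26% in cKO and no WT peak. Tfeb and Sgk1 had none in either.

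**Figure D5:**
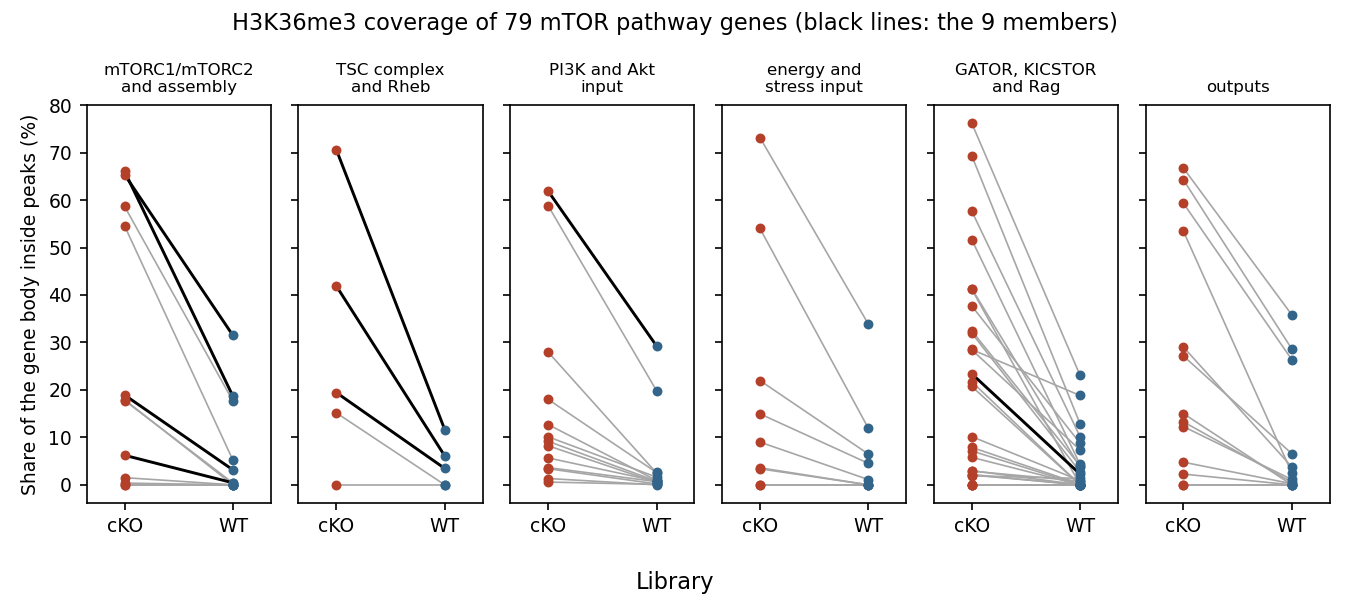
Share of the gene body inside peaks (vertical axis, percent) for 79 pathway genes in 6 panels, 1 per list, with each gene as a line that joins its cKO point (left) to its WT point (right) and the 9 genes in black. No line is higher in WT, and 11 genes lie at 0 in both libraries.

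The size of the differences depended on how far down the cKO list was read. The share of all genes called was computed for the full lists alone, so the counts from shortened lists have no background here. With only the strongest cKO peaks kept, as many as WT has, 5 of the 9 genes were called higher, and Rictor, Rheb and Depdc5 no longer were. With so few kept that they covered no more bases than the WT peaks, a setting that takes away any overall gain by its construction, 2 of the 9 were called, Mlst8 and Akt1. Mtor then had 19.4% in cKO and 18.6% in WT, and Tsc2 9.37% in cKO and 11.6% in WT. Tsc1 had 10.6% in cKO and 6.09% in WT under that setting. The difference became negative for Rptor, Rictor, Tsc2, Rheb and Depdc5. As only 5308 cKO peaks were set against 36820 WT peaks, this can follow from the cut alone. Rptor and Rheb had no cKO coverage left, so their difference was the WT value with a minus sign.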

How the data were processed

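Chromatin was crosslinked with 1% formaldehyde, sonicated and immunoprecipitated, per the labels' protocols. Bowtie2 2.2.9, MACS2 2.1.0, FastQC and bedtools are named with build mm10, per the submitters' processing notes. Peaks were called by MACS 2.1.1.20160309 against input, as narrow peaks, at a p cutoff of 1.00e-05 with tags of 150 bp, per the file headers. The authors' lists hold pileup (signal at the summit), fold enrichment over local background, and the -log10 p-value and q-value. The file headers say q was not calculated, yet the deposited column is filled, and it served only to rank and filter peaks. A second deposited table names a class and gene per peak, with starts 1 bp higher, and no source used here names its tool. The cKO input carries 2 numbers in its name, and whether it was pooled is not stated.

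Peaks were joined to names by position and set on protein-coding spans of RefSeq GRCm38.p6 with Python 3.11.15, pandas 2.3.3 and scipy 1.17.1. Coverage was tested on simulated peaks. Local background was (pileup + 1) / fold - 1, and genome background was the number of tags times their extended length, divided by the genome size. The 9 genes, the 6 lists, the markers and the alternatives were chosen with earlier results of these data known. Named in full were the 9 genes and, per list, up to 3 with the largest difference, those marked in 1 genotype and those with no peak, except that some of these are not reported here. Alternatives were stricter peaks, shorter cKO lists, joined peaks, peaks by body, other overlaps, and, added after seeing the data, bodies without shared bases and a background of genes with a promoter window, where 33.6% were called higher.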

Additional observations from a re-analysis of the deposited data

Results flagged for a closer look

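Beyond the 3' end of Akt1, 2 cKO peaks that the authors' annotation classed as intergenic carried the name Akt1 and stood outside the comparison above. One had a pileup of 25 (chr12:112651147-112651959, 1861 bp past the end of the gene) and the other a pileup of 28 (chr12:112652294-112652947, 873 bp past it). They are listed because they lie outside the comparison, and 0 WT peaks overlapped either of them. This is the usual state of a cKO peak, since 82.9% of all intergenic and 74.4% of all genic cKO peaks had no WT peak. No other of the 9 genes had an intergenic peak by name in either library. With 1 library per genotype no group was large enough to look for samples far from the others.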

How the results depend on the processing

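No paired analysis was possible because each genotype had 1 ChIP library. Filtering both lists at -log10 q 5, or at fold enrichment 4, left 8 of the 9 genes higher by 10 points, and joining peaks within 3 kb made it 9, Rptor included (15.1 points). With the cKO list at the WT number of peaks 5 genes were called, and at the WT covered length 2. There the difference in coverage was -0.423 points for Rptor, -0.239 for Rictor, -2.27 for Tsc2, -3.45 for Rheb and -1.59 for Depdc5. Of the wider genes 39 were called, against 26 at the WT number, 5 at the WT covered length, 27 at 20 points and 47 with joined peaks. Apart from 20 points, the share of all genes was not computed at these alternative settings. The counts there, those of the 9 genes included, thus cannot be set against what all genes did. The WT covered length takes away an overall gain by its construction, and the cause of the longer cKO list was not tested.

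Peaks by name over the 9 genes numbered 150 in cKO and 70 in WT. The cKO count was 54 at the WT number of peaks, 10 at the WT covered length and 256 by body. By body the WT count was 117, and joined peaks gave 23 in each library. The difference in named peaks turned to 7 for Mtor by body (-10 by name), to -2 for Rptor and -2 for Rheb at the WT number, and to -3 for Tsc1 and -2 for Rheb with joined peaks. At the WT covered length it turned to -3 for Rptor, -7 for Tsc1, -4 for Tsc2, -6 for Rheb and -10 for Depdc5.

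The share of cKO peaks overlapped by WT was 25.5% at a -log10 q of at least 5, 55.9% at the WT number, 94.7% at the WT covered length, 6.25% when 50% of the peak had to be shared and 4.30% when 50% of both had to be. For WT peaks overlapped by cKO it was 77.8% at the WT number, 33.3% at the WT covered length and 9.40% with 50% of both. The shares over all genic peaks were not computed at these settings. These values thus cannot be set against what all peaks did. Narrow calling at this depth limits what a missing peak shows, and a gene at 0 was not detectably marked.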
